A study of Mus musculus with 84 samples.

Results

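The livers of 6 diabetic db/db mice that had received the PPARγ agonist rosiglitazone (RSG) at 84 µmol/kg are described here, 6 of the 84 samples of the series, chosen by the tissue, compound and dose in their labels. All mice of the series carried the db mutation of the leptin receptor on the BKS background (BKS Cg-m+/+ Leprdb/J), and those of the study were males of 8 weeks on arrival. They were dosed by mouth for 18 days with RSG at 28, 84 or 280 µmol/kg, or with equal molar amounts of a compound that the labels call S, in groups of 6 mice, and liver and inguinal fat were taken. RNA of each treated liver was hybridised against a pool of liver RNA from 6 untreated db/db mice on 2 Agilent 2-colour arrays with the dyes exchanged. The pool was 1 control sample, so the spread between untreated mice entered no test, and a difference shared by all treated groups cannot be told apart from a feature of that pool. Mice without a working leptin receptor overeat and become obese, so the values hold for that setting, and no lean mouse was analysed here.

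PPARγ is a nuclear receptor that pairs with RXR on DNA and switches on genes for taking up, making and storing fat. It is most abundant in adipocytes, and normal liver holds little of it, but the fatty liver of obese rodents holds more and responds to its agonists. RSG belongs to the thiazolidinediones, drugs that improve the response to insulin. The comparison with the pool asks which liver genes RSG raised or lowered in db/db mice, and the comparisons between doses and with S ask whether the response at this dose was shared.

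All values below are log2 ratios of treated liver over pool, averaged over the exchanged dyes, so that 1 stands for a 2-fold higher and -1 for a 2-fold lower signal. A sequence is 1 array probe, and a gene is represented by its brightest probe. A value was called where the limma test gave a Benjamini-Hochberg adjusted p under 0.05 over 25256 sequences, or 17834 genes. On the 12 arrays of these livers the channel of the mouse was well above background for 43.4 to 61.3% of the probes, with a median of 53.1%. Mouse 5 stood apart from the other mice. Its ratios correlated with those of the others with a mean r of 0.676 across sequences, against 0.736 to 0.792 for the other 5 mice. Where a value or call turned on mouse 5, the value without it is given too.

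Against the pool, 24.6% of the sequences were called higher and 33.1% lower, 57.7% in all. Mice 1 to 4, scanned on 1 day, gave 13880 calls and mice 5 and 6, scanned on another, 7284. Among genes, 4472 (25.1%) were higher and 5998 (33.6%) lower, and the median of all genes was -0.03. Most of these differences were small. A called change of at least 2-fold was found in 360 genes (2.02%) upwards and 245 genes (1.37%) downwards. The median SD over the 6 mice was 0.14 for a sequence. At the study's thresholds of an unadjusted p under 0.001 and a fold of at least 1.3, 8.48% of the sequences were higher and 9.99% lower.

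The genes with the highest mean ratios come first. Cfd, which encodes the serine protease adipsin of the complement system and is secreted by adipocytes, showed ratios of 6.68 in the lowest mouse, 7.12 at the median and 7.28 in the highest. All mice lay within a narrow band far above the pool, and the mean of 7.05 ± 0.23 (SD, n = 6) was a 133-fold difference (adjusted p = 1.23e-24, limma). Elovl7, an elongase of long-chain fatty acids, ran from 5.21 to 5.73 with a mean of 5.48 ± 0.19. Nat8l, which makes N-acetylaspartate in neurons and adipocytes, was well above background in no pool channel, so its level was at least 18.1-fold higher in the treated livers. Sdcbp2, a PDZ-domain adaptor protein, reached 4.99 ± 0.18 and varied as little between mice.

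Cidec and Cidea, proteins of the lipid droplet surface that fuse small droplets into large ones, had means of 4.31 ± 0.18 and 4.29 ± 0.42. Fabp4, which binds fatty acids in adipocytes, ran from 3.18 over a median of 3.80 to 5.29, its highest value in mouse 1 and its lowest in mouse 5. No mouse overlapped the level of the pool for any of these genes. Also among the 12 highest were the orphan receptor gene Gprc5b (4.54), the ion exchanger gene Slc24a3 (4.33), Duoxa1 (4.01), which encodes a maturation factor of dual oxidase, and the acyl-CoA thioesterase gene Acot5 (3.63). By the rule that chose them these genes were called and above the pool in 6 of 6 mice, as were 20.2% of all genes tested. With another background correction, normexp, dimmer genes had smaller ratios that were still called, such as 2.60 for Gprc5b, 1.78 for Duoxa1 and 2.18 for Acot5, while Cfd stood at 6.70. Nat8l was at 2.43 under normexp, a smaller difference than its lower limit above. The lower limits of folds in this text hold for the main processing and not always under normexp.

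**Figure D1:**
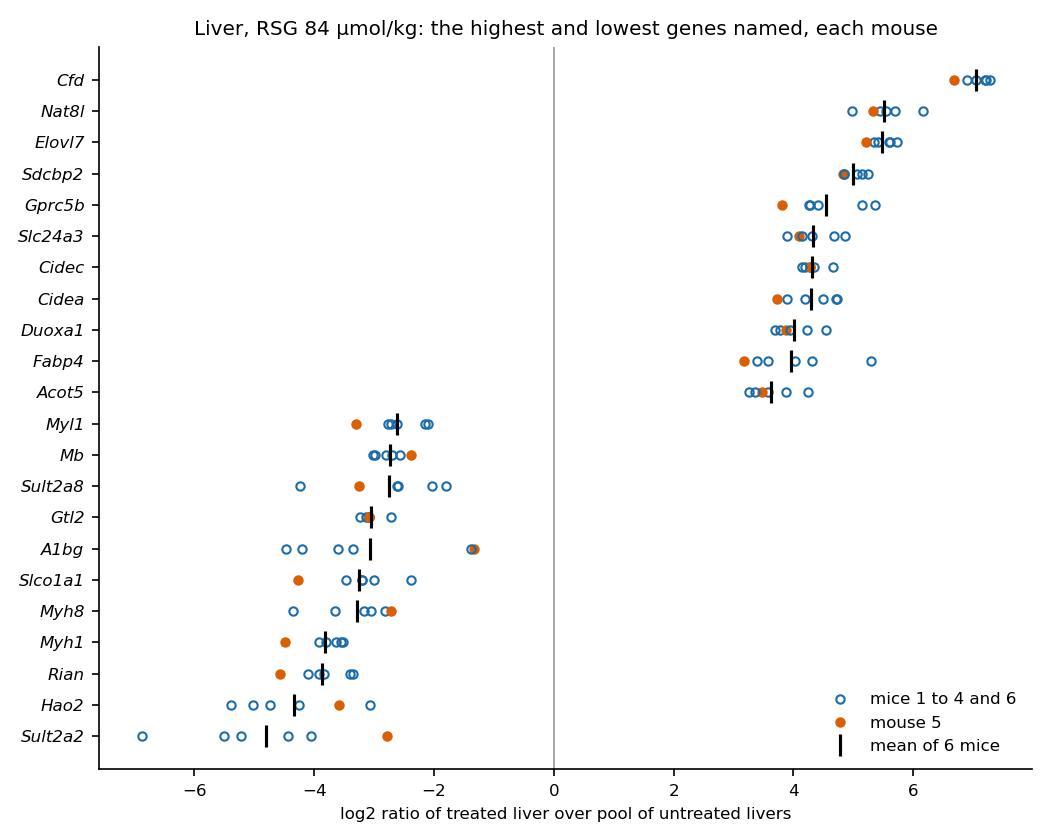
Log2 ratio of treated liver over pool (x axis) for the highest and lowest genes named at RSG 84 µmol/kg; each point is 1 mouse, mouse 5 is filled and the bar is the mean of 6 mice. The points of Cfd lie between 6.68 and 7.28, while those of Sult2a2 spread from -6.88 to -2.78.

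Among the lowest genes was Sult2a2, a sulfotransferase of steroids and bile acids whose message is higher in female liver. It ran from -6.88 over a median of -4.82 to -2.78. Hao2, a peroxisomal hydroxyacid oxidase, also a gene of female liver, ran from -5.38 to -3.07. Both were below the pool in every mouse, with a wider spread than that of Cfd or Elovl7. By the rule that chose them the lowest genes were called and below the pool in 6 of 6 mice, as were 27.8% of all genes tested. Sult2a2 had a mean of -4.81 ± 1.40 (adjusted p = 5.46e-09) and Hao2 of -4.34 ± 0.88 (adjusted p = 1.32e-11), which was -2.37 under normexp. The probes of Sult2a2 and Sult2a8 (mean -2.76) may read other members of their closely related family.

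A1bg, a plasma glycoprotein gene, lay between -4.48 and -3.36 in mice 1 to 4 and at -1.34 and -1.38 in mice 5 and 6, which had been scanned on another day, a difference that was not called (adjusted p = 0.215, limma). The liver uptake transporter gene Slco1a1 was not well above background in any treated liver. Its level was at least 2.88-fold lower than in the pool, with a log2 ratio of -0.77 under normexp.

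Gtl2 (also called Meg3; probe at chr12:110019275-110019334, + strand, mm8) and Rian (probe at chr12:110108401-110108460, + strand, mm8) are neighbouring imprinted noncoding RNAs. Gtl2 ran from -3.24 to -2.71 with a mean of -3.05 ± 0.18 (adjusted p = 1.45e-30). The same gene lay at -3.02 ± 0.08 at 28 µmol/kg, -2.96 ± 0.05 at 280 µmol/kg and -3.06 ± 0.07 with S at 84 µmol/kg. Rian was not well above background in any treated liver of this dose. It was at least 3.77-fold lower than in the pool, with a log2 ratio of -1.04 under normexp. These values were close in the groups of both compounds, and a feature of the pool cannot be told apart from an effect of treatment here.

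Skeletal muscle markers were also lower than in the pool. Of 15 tested, 14 were called lower and none higher, with a median of -1.29. Among all genes 33.6% were called lower and 25.1% higher, shares beside which this and the later list counts are to be read. Myh1, a fast myosin heavy chain, was at least 4.02-fold lower, the oxygen carrier Mb at least 2.48-fold lower and Myl1 at least 1.39-fold lower, each well above background in no treated liver and in 10 or 12 of the 12 pool channels. Over the 6 mice the list median ran from -1.61 to -1.06, and with S at 84 µmol/kg from -1.45 to -1.09. The highest liver at RSG 280 µmol/kg was at -0.31, and 1 liver with S at 28 µmol/kg was above the pool, at 0.65. The medians of those groups were -1.17 and -1.13. The cause of this shift was not tested. Under normexp the median at RSG 84 µmol/kg was -0.52, with Myh1 at -1.09, Mb at -0.65 and Myl1 at -0.55. The part of muscle RNA in the pool in other results was not tested.

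Because RSG acts through PPARγ, 22 genes known as its targets in adipocytes were read next. Of them 14 were called higher and 3 lower, with a median of 0.85 that was 0.69 with scan day as a block of the fit. Plin4, a coat protein of lipid droplets, ran from 2.91 over 3.27 to 3.74 and was a 9.59-fold difference at its mean of 3.26 ± 0.30. Lpl, the lipase that frees fatty acids from circulating lipoproteins, reached 2.63 ± 0.49, and Mogat1, an enzyme of triglyceride synthesis, 1.46 ± 0.39. Cd36, the fatty acid translocase, was raised by 0.85 ± 0.12, and Pdk4, the kinase that restrains pyruvate dehydrogenase, by 1.11 ± 0.39, a call lost with scan day as a block (0.56, adjusted p = 0.239). The gene of the receptor, Pparg, was itself higher by 0.52 ± 0.21, with 0.90 in mouse 1 and 0.34 to 0.51 in the others. Slc27a1, a fatty acid transporter, went the other way at -0.51 ± 0.14.

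Markers that define fat cells were read beside these targets. Of 13 white adipocyte markers 9 were called higher and 2 lower, with a median of 0.52. The 2 lower genes were Slc2a4, the insulin-responsive glucose transporter, at -0.98, and Adipoq, the adiponectin gene, at -0.65, which was chosen here after its value was seen. Plin1, which coats the droplets of adipocytes, was well above background in no treated liver (0 of 12 arrays) and in 2 of 12 pool channels, with a mean ratio of -0.05. Of 9 brown adipocyte markers 6 were higher and 2 lower, with Cidea and Elovl3 among those above. Below were the coactivator gene Ppargc1a, at -0.66, and Cox8b, at background in the treated livers. With scan day as a block of the limma fit Ppargc1a kept its call (-0.44, adjusted p = 0.0359) and Cox8b lost it (-0.74, adjusted p = 0.0771). The brown adipocyte median was 0.49, and 0.18 under normexp. Elovl3 reached 2.42 ± 0.25 and Cox7a1, a subunit of cytochrome oxidase, 1.38 ± 0.40.

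Proteins of the lipid droplet had 12 of 16 genes called higher and 1 lower, with a median of 0.80 that was 0.61 with scan day as a block. Fitm1, which helps droplets to bud from the endoplasmic reticulum, was raised by 1.07 ± 0.15, and Cideb, the member of the CIDE family that works in lipoprotein secretion, was lower at -0.29 ± 0.12. Of 9 lipolysis genes 6 were higher and 1 lower. Among them were Abhd5, the activator of the main triglyceride lipase, at 0.92 and Mgll, monoacylglycerol lipase, at 0.43, a call lost with scan day as a block (0.31, adjusted p = 0.0661), while the hepatic lipase gene Lipc was lower at -0.999. Triglyceride synthesis showed 10 of 18 genes higher and 2 lower, among the former Mogat1, given above, and Gpd1 (1.43), Agpat2 (1.06), Gpat3 (0.99) and Dgat1 (0.66), which make glycerol phosphate and add the fatty acyl chains.

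Fatty acid synthesis carried the highest list median, 0.99, with 15 of 20 genes called higher and 1 lower. Scd1, the desaturase that makes oleic acid, ran from 2.05 over 2.71 to 2.74 and was raised 5.98-fold. Fasn, fatty acid synthase, had a mean of 2.05 ± 0.64, with 0.82 in mouse 5 and 2.05 to 2.63 in the other mice. Acly, which makes cytosolic acetyl-CoA, was at -0.36 in mouse 5 and at 0.81 to 1.499 in the others. Mouse 5 was thus the lowest for all 3 genes, and the list median was 1.19 without it. The carboxylases Acaca and Acacb were higher by 1.12 ± 0.38 and 1.26 ± 0.31, and Elovl5 by 1.21 ± 0.24. Elovl2, an elongase of polyunsaturated fatty acids, was the called gene that went down, at -1.05 ± 0.19.

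Genes of enzymes that supply NADPH for fat synthesis were mostly higher as well. Of 10 genes 8 were higher and 1 lower, with a median of 0.81. Me1, the malic enzyme, reached 2.35 ± 0.45 and G6pdx, the first enzyme of the pentose phosphate pathway, 2.01 ± 0.35. Pgd (1.10), Taldo1 (1.06) and Tkt (0.78) of the same pathway were raised in 6 of 6 mice, while 20.2% of all genes were called higher and above the pool in every mouse. H6pd, the form of the first enzyme inside the endoplasmic reticulum, was lower at -0.12 ± 0.08 (adjusted p = 0.0244), a call lost without mouse 1 (adjusted p = 0.0967), without mouse 6 (adjusted p = 0.0738) and in the fit with scan day (adjusted p = 0.291).

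Most genes of fatty acid oxidation were higher, by smaller steps. In peroxisomes, 15 of 23 genes were called higher and 2 lower, with a median of 0.41 that was 0.24 with scan day as a block. The thiolases Acaa1b and Acaa1a, whose probes may each read both of these near-identical genes, were at 1.96 ± 0.17 and 1.91 ± 0.17. Ehhadh, the bifunctional enzyme of the pathway, reached 1.40 ± 0.17. In mitochondria, 15 of 20 genes of beta-oxidation were higher and 3 lower, with a median of 0.22 that was 0.14 with that block. The carnitine acyltransferase Crat (1.38) and the medium-chain dehydrogenase Acadm (0.87) were raised, while Cpt1a, the entry step of liver beta-oxidation, was lower at -0.48 ± 0.18. Subunits of the respiratory chain had 20 of 25 genes higher and 2 lower with a median of 0.19, for example Cycs, cytochrome c, at 0.72.

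Genes that bind and activate fatty acids had 13 of 18 members higher and 3 lower (median 0.57). Fabp5, another fatty acid binding protein, was well above background in no pool channel. It was at least 2.32-fold higher, with a log2 ratio of 0.63 under normexp. Dbi, the acyl-CoA binding protein, was raised by 0.82 ± 0.13. Fabp2, the intestinal form, ran from -0.40 in mouse 1 to 0.66 in mouse 5 and was not called (mean 0.21 ± 0.35, adjusted p = 0.106). Without mouse 1 it was called higher (0.33, adjusted p = 0.0134), as on the Cy3 arrays alone (0.31, adjusted p = 0.018), and without mouse 5 its mean was 0.12.

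**Figure D2:**
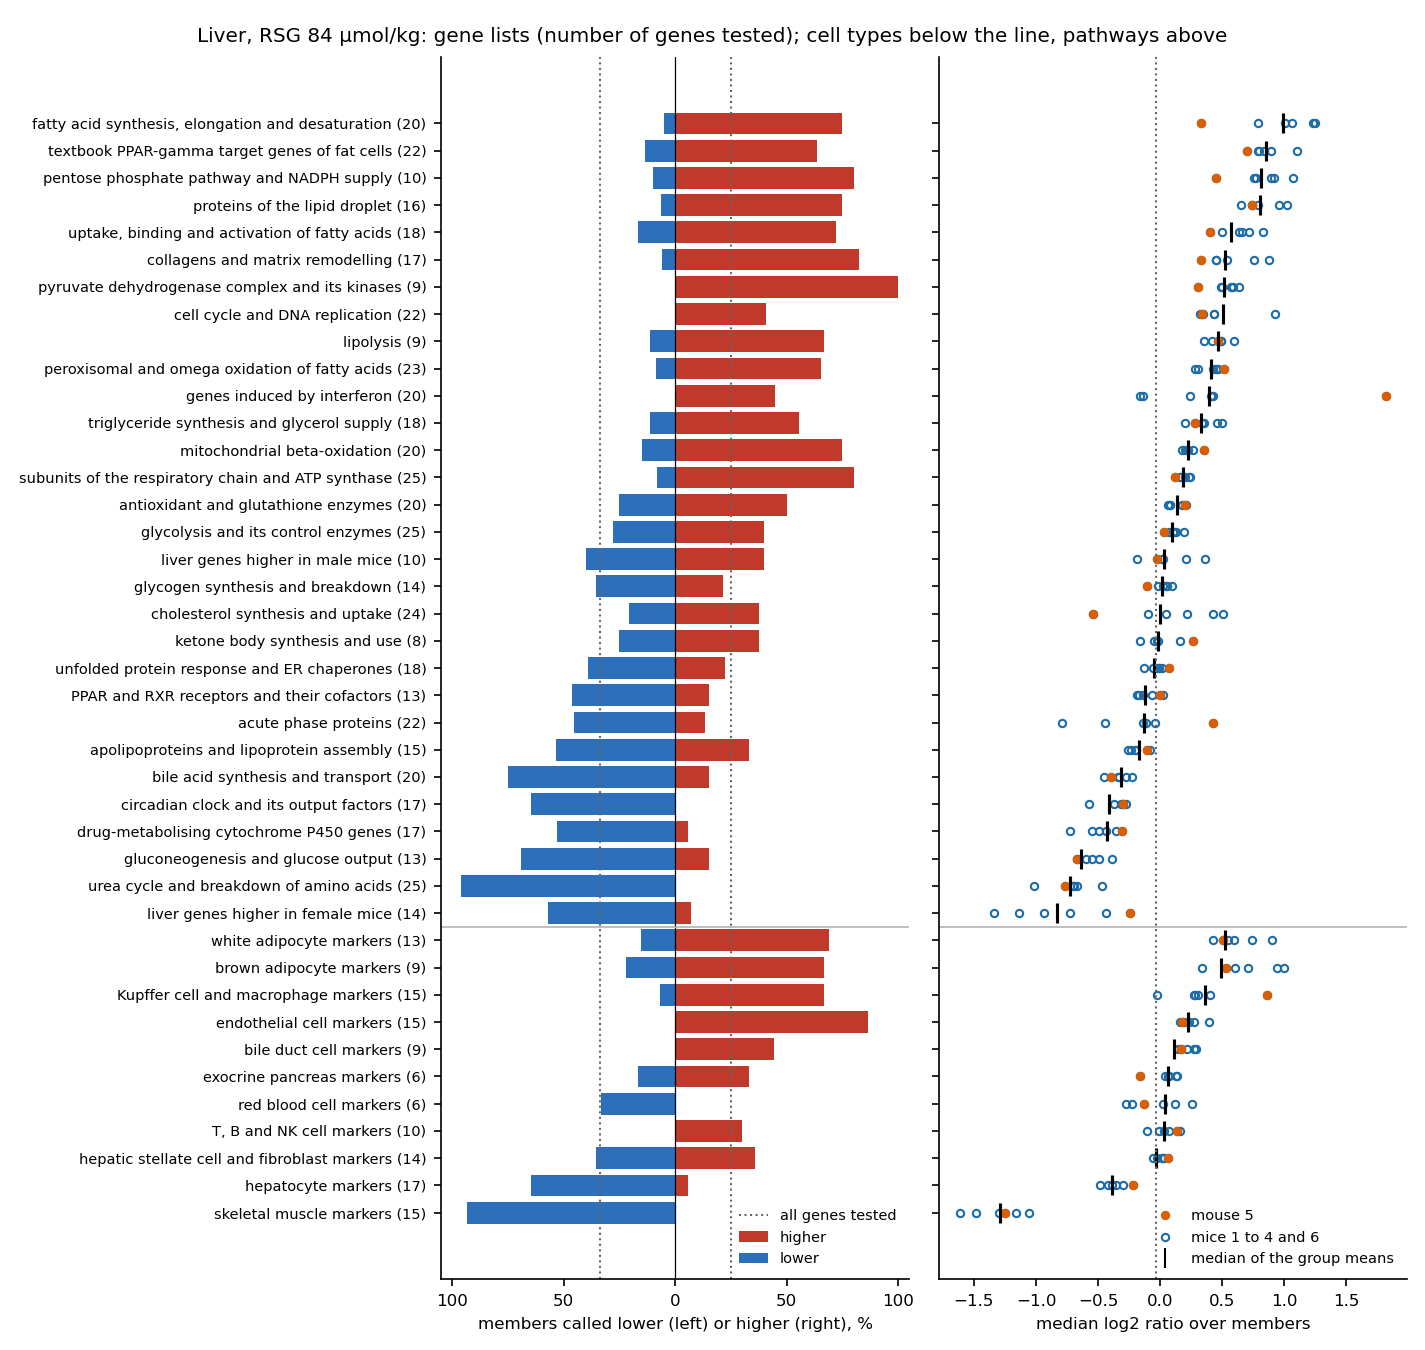
Gene lists at RSG 84 µmol/kg, pathways above the line and cell type markers below. Left, the share of tested members called lower or higher, with the share among all genes dotted; right, the median log2 ratio over members in each of the 6 mice (mouse 5 filled) and of the group means (bar). Fatty acid synthesis stands highest with a median of 0.99 and skeletal muscle markers lowest with -1.29, and mouse 5 lies at 1.82 for interferon genes.

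Genes of glucose output were lower for the most part. Of 13 tested 9 were called lower and 2 higher, with a median of -0.64 that was -0.44 with scan day as a block. G6pc, glucose-6-phosphatase, ran from -0.96 over -0.84 to -0.50, its mean of -0.79 ± 0.17 being a 1.73-fold lower level (adjusted p = 1.85e-05). Its partner Slc37a4, which carries glucose 6-phosphate into the endoplasmic reticulum, was at -1.01 ± 0.16, the gluconeogenic enzyme Fbp1 at -0.71 ± 0.18 and the glucose transporter Slc2a2 at -0.57 ± 0.15. Every mouse was below the pool for these 4 genes, while 27.8% of all genes were called lower and below the pool in every mouse. Pcx, pyruvate carboxylase, which feeds both gluconeogenesis and fat synthesis, was the exception among the named genes with 0.76 ± 0.05. Pck1 was not analysed here.

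Glycolysis was divided, with 10 of 25 genes higher and 7 lower and a median of 0.09, or 0.15 without mouse 5. Hk2, the hexokinase of muscle and fat, was raised in a narrow range from 2.11 to 2.59, and Aldoa, an aldolase of muscle, reached 0.63. Gckr, the regulator of glucokinase, was lower at -0.81, Pfkfb2, which sets the level of fructose 2,6-bisphosphate, at -0.66 and Pklr, the pyruvate kinase of liver, at -0.40. The call of Pklr (adjusted p = 0.0255) was lost without mouse 5 (-0.33, adjusted p = 0.0969) and with scan day as a block (-0.41, adjusted p = 0.20). Gapdh did not change beyond its spread (-0.04 ± 0.10, adjusted p = 0.767). All 9 genes of pyruvate dehydrogenase and its kinases were higher, with a median of 0.51 (0.33 under normexp), including the subunits Dlat (0.91) and Pdha1 (0.55).

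Breakdown of amino acids was the most uniform downward group. Of 25 genes of the urea cycle and amino acid breakdown 24 were called lower and none higher, with a median of -0.73. Cps1, the first step of the urea cycle, lay at -1.77 in mouse 1 and between -1.09 and -0.87 in the others. Gnmt (-1.12), Mat1a (-0.98) and Cbs (-0.73) of the methionine pathway and Asl (-0.87) of the urea cycle were below the pool in 6 of 6 mice. Of all genes 27.8% were called lower with every mouse below the pool. Asns, which makes asparagine and was counted with the unfolded protein response, went up by 1.15 ± 0.51.

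Bile acid genes followed with 15 of 20 lower and 3 higher (median -0.32). The transporter Slco1a4 was at -2.17 ± 0.21 and the reductase Akr1d1 at -1.78 ± 0.41, while the export pump Abcc3 rose by 0.78 ± 0.15 and the oxidase Acox2 by 0.46 ± 0.09. Of 17 drug-metabolising cytochrome P450 genes 9 were lower and 1 higher (median -0.43), with Cyp2c37 at -1.89 and Cyp2c29 at -1.55 against Cyp2c55 at 1.89. Of 14 genes higher in female liver 8 were lower and 1 higher, with a median of -0.83 that shrank to -0.27 under normexp correction. Clock genes had 11 of 17 members lower and none higher (median -0.41), among them Per3 (-0.58) and Tef (-0.63). Acute phase proteins had 10 of 22 lower and 3 higher, with a median of -0.13 that was -0.42 without mouse 5, -0.34 without mouse 2, -0.03 without mouse 6 and 0.02 without mouse 1. Apcs, serum amyloid P, rose by 0.98 while Crp was at -0.65.

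Markers of the cell types of liver were read beside the metabolic genes. Of 17 hepatocyte markers 11 were called lower and 1 higher, with a median of -0.39. Hnf4a, a transcription factor that defines hepatocytes, was at -0.52 ± 0.14 and the asialoglycoprotein receptor gene Asgr1 at -0.39 ± 0.07, while Apoa1 rose by 0.99 ± 0.28. In whole liver, fewer cells of a type and less RNA per cell cannot be told apart. Endothelial markers had 13 of 15 genes higher with a median of 0.23, and Kupffer cell markers 10 of 15 higher and 1 lower with a median of 0.36 (0.26 without mouse 5). Matrix genes had 14 of 17 higher and 1 lower with a median of 0.53 (0.29 under normexp), for example Col4a1 at 1.12 and Col1a2 at 0.99, against Timp1 at -0.38. Replication genes had 9 of 22 higher and none lower, led by Mcm2 at 1.07, and mouse 1 had the highest list median with 0.93.

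The remaining lists were mixed, and several had shares near those over all genes, 25.1% higher and 33.6% lower. For example, 30% of lymphocyte markers were higher, and 33.3% of red cell markers and 35.7% of glycogen genes were lower. Antioxidant genes had 10 of 20 higher and 5 lower, with Gpx4 at 1.05 and Gsta2 at -1.06, and cholesterol synthesis 9 of 24 higher and 5 lower with a median of 0.00, or 0.16 without mouse 5 and -0.08 without mouse 3 or mouse 4. Of 15 apolipoprotein and assembly genes 5 were higher and 8 lower, with Pltp, the phospholipid transfer protein, at 2.08 and Apoa5 at -1.40. Receptors of the PPAR and RXR family and their cofactors had 2 of 13 higher and 6 lower, Rxra among the latter at -0.49 ± 0.12. Of 18 genes of the unfolded protein response 4 were higher and 7 lower (median -0.05, or 0.08 with scan day as a block), with Herpud1 at -1.07. Ketone body genes had 3 of 8 higher and 2 lower, and glycogen genes 3 of 14 higher and 5 lower. Of 10 genes higher in male liver 4 were higher and 4 lower. Among further cell types, stellate cell markers had 5 of 14 higher and 5 lower, bile duct markers 4 of 9 higher and none lower, lymphocyte markers 3 of 10 higher and none lower, pancreas markers 2 of 6 higher and 1 lower, and red cell markers 2 of 6 lower and none higher, with medians between -0.03 and 0.11. Some medians this near 0 changed sign, to -0.09 for lymphocyte and 0.02 for stellate cell markers with scan day as a block.

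In mouse 5, genes induced by interferon set the liver apart. Among 17377 sequences well above background on all 12 arrays, mouse 5 was more than 1 log2 unit above every other mouse of its group in 96 and below in 8. For the other 5 mice these counts were 0 to 10 above and 0 to 22 below. The largest gaps belonged to GTPases that interferon-γ induces to defend cells against intracellular microbes. Tgtp1 was at 3.94 in mouse 5 and between -1.18 and -0.04 in the others, and Gbp8 at 3.43 against -0.35 to -0.07. Igtp (2.95 against -2.50 to -0.59), Iigp1 (2.93), Gbp7 (3.04), Gbp6 (3.34) and Gbp2 (2.68) showed the same gap. Mouse 5 had the highest value of the 36 treated livers for all 7 genes. The 7 were named for the widest spread over the mice of this group. A mouse far from the rest of the group was therefore built into that choice.

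The stretches before the start sites of 4 of these genes are shown because these genes set mouse 5 apart and promoters induced by interferon are known for a pair of short elements. They are from RefSeq on GRCm38.p6, read along the strand of the gene up to its start, and capitals mark a pair of GAAA with 2 bases between them, the core of the interferon-stimulated response element, and TTC and GAA with 3 bases between them, the gamma-activated site, on either strand. Read from the opposite strand GAAA is TTTC. In Igtp and Tgtp1 both motifs lie side by side. The windows are Igtp chr11:58199436-58199555 (+ strand), Tgtp1 chr11:48992247-48992366 (- strand), Gbp7 chr3:142530216-142530335 (+ strand) and Gbp2 chr3:142620543-142620662 (+ strand).
Igtp: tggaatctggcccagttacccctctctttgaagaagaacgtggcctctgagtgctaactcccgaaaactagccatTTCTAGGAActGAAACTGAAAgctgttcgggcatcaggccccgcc
Tgtp1: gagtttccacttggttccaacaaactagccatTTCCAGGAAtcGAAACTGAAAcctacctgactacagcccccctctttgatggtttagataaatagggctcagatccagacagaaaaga
Gbp7: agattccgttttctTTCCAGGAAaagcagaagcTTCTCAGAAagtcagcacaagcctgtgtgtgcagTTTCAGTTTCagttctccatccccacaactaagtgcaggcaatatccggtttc
Gbp2: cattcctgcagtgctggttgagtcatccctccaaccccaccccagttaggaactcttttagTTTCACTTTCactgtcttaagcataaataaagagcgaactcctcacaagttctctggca

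The paired GAAA was found in 2.98% of 32851 promoter windows of RefSeq, and in 3.35% of the 10911 genes tested that had a window. Of the 77 named genes that mouse 5 held above every other mouse, 55 had a promoter window, and 17 of these (30.9%) held the motif. The pair of TTC and GAA was in 7.02% of all windows, in 7.48% of these tested genes and in 12 of the 55 (21.8%). Of the interferon list 9 of 14 genes with a window held the first motif (64.3%). The direct repeat bound by PPAR and RXR, AGGTCA and AGGTCA with 1 base between them, was in 0.0335% of the windows, in 0.0642% of these tested genes and in none of the windows of 17 PPARγ target genes. An exact match is so rare that its absence from 17 genes tells nothing about PPAR elements in them. With other software the paper predicted such elements in the promoters of most genes that its models selected. A match describes letters in a window and is neither a bound site nor a cause, and the 77 genes were chosen by these values.

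Mouse 5 also decided the list of 20 interferon-induced genes. With 6 mice 9 were called higher and none lower, with a median of 0.39. Without mouse 5 the median was 0.11, and 6 were called higher and 4 lower, while with scan day as a block of the fit the median was 1.06. Among the list members, Iigp1 (-1.42, adjusted p = 0.00713, limma) and Gbp2 (-1.18, adjusted p = 0.00592) were called lower without mouse 5 and were not called with it. The same held for Igtp (-1.78, adjusted p = 0.00719) and Gbp7 (-1.01, adjusted p = 0.0396), which are not in the list. Ifi27l2a (2.59 ± 0.19), Usp18 (1.57 ± 0.63) and Oas1a (1.16 ± 0.31), which answer to type I interferon, were above the pool in 6 of 6 mice. Among all genes 20.2% were called higher with every mouse above the pool. The list median was 1.82 in mouse 5 and -0.17 in mouse 6, which shared its slide and scan day, and 1 liver at 28 µmol/kg (1.40) and 1 with S at 84 µmol/kg (1.36) were nearly as high.

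**Figure D3:**
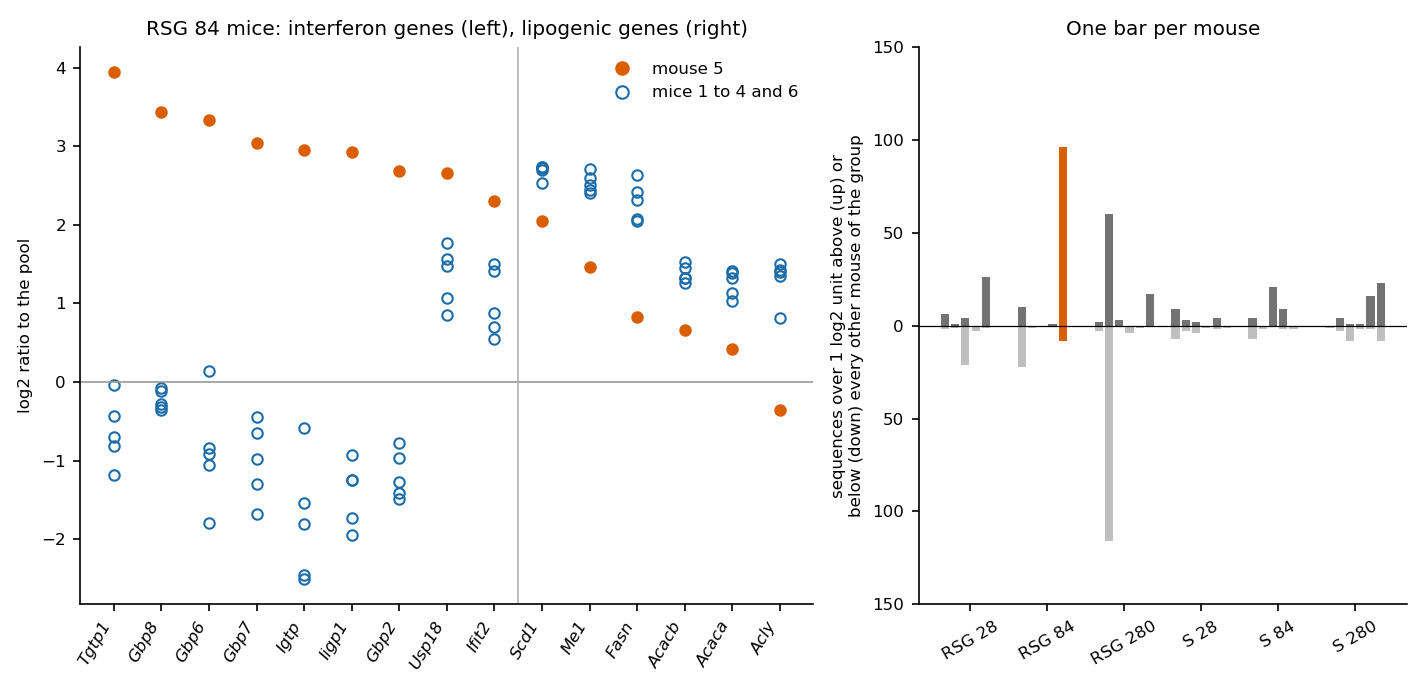
Left, log2 ratio to the pool of interferon-induced and lipogenic genes in each of the 6 mice at RSG 84 µmol/kg, mouse 5 filled. Right, the number of sequences in which each treated liver lay more than 1 log2 unit above (up) or below (down) every other mouse of its group; mouse 5 had 96 above, and mouse 2 at RSG 280 µmol/kg had 60 above and 116 below.

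Between doses, no sequence was called. At 84 against 28 µmol/kg 0 of 25256 sequences passed limma with Benjamini-Hochberg adjustment (0%), and 1059 (4.19%) had an unadjusted p under 0.05. The smallest p values belonged to Tmem163, a zinc transporter, with a difference of 1.12, Stap1, an adaptor of signalling, with -0.93, and Lrrc26, a channel subunit, with 0.82, all with an adjusted p of 0.909. At 84 against 280 µmol/kg again 0 sequences passed (0%) and 1864 (7.38%) had an unadjusted p under 0.05. The smallest adjusted p was 0.224 for Slc25a51, the mitochondrial carrier of NAD, with a difference of 0.33. Within the scan day shared by the groups, the 4 mice of RSG 84 and 2 mice of RSG 28 gave 4 calls, and 2 mice of RSG 84 and 4 of RSG 280 gave none.

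A missing call does not show that the doses act alike, and the intervals tell how far they could differ. For Fabp4 the difference from 28 µmol/kg was 0.46 (95% interval -0.28 to 1.20) and from 280 µmol/kg 0.26 (-0.49 to 1.00). For Lpl these were 0.54 (0.05 to 1.02) and -0.17 (-0.66 to 0.31). For G6pc, at -0.79 at this dose, -0.71 at 28 µmol/kg and -1.41 at 280 µmol/kg, they were -0.07 (-0.48 to 0.34) and 0.62 (0.21 to 1.03). Taken as single genes, the intervals of Lpl against 28 µmol/kg and of G6pc against 280 µmol/kg leave out 0. The adjustment over all sequences called neither. Fbp1 was likewise 0.34 above its value at 280 µmol/kg (0.05 to 0.63).

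**Figure D4:**
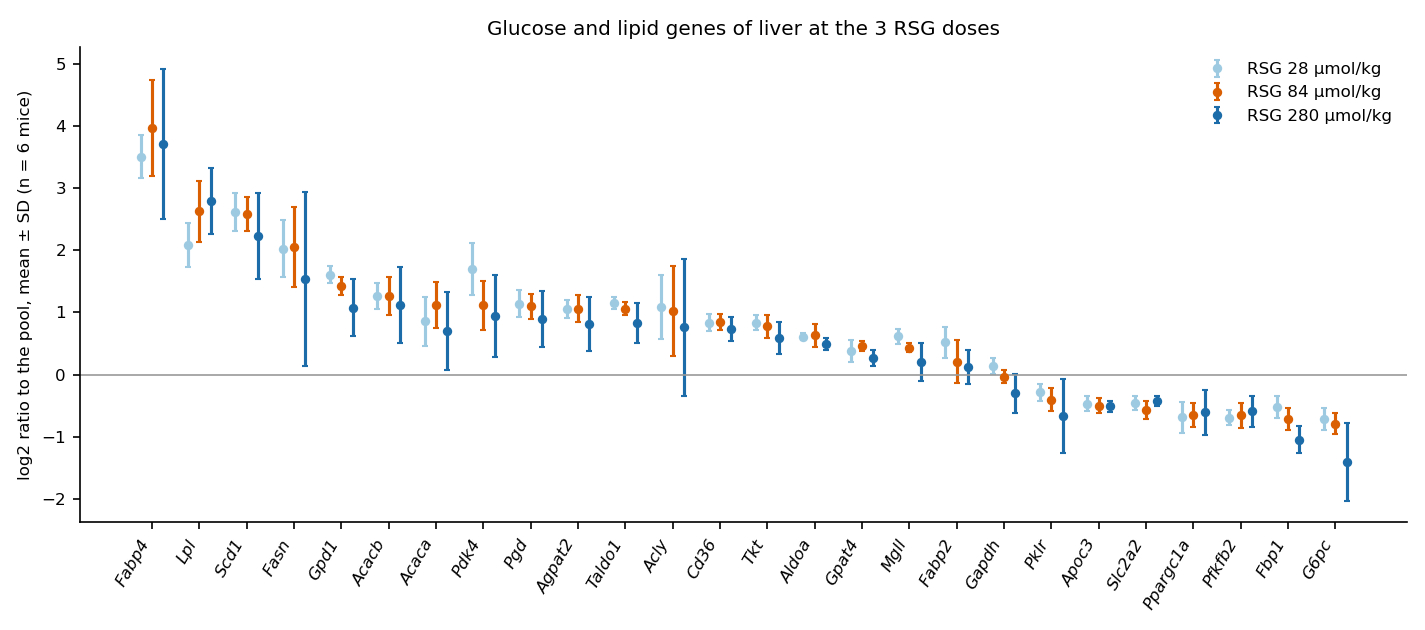
Mean ± SD (n = 6 mice) of the log2 ratio to the pool for glucose and lipid genes of liver at the 3 RSG doses. The bars of the doses overlap for most genes; G6pc lies at -0.71, -0.79 and -1.41 from the lowest dose to the highest.

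At the matched dose of 84 µmol/kg RSG differed from S in 172 sequences upwards (0.681%) and 297 downwards (1.18%), 1.86% in all, and 3822 (15.1%) had an unadjusted p under 0.05. Only this pair of compounds was compared at this dose. The livers of the compounds were scanned on different days, so that compound and scan day cannot be told apart directly. With scan day as a block of the fit, in which other groups link the days, 0 sequences were called, and with scan day as a random block 270. Leaving out 1 mouse gave 260 to 524 calls, the lowest without mouse 5 of S and 307 to 310 without mouse 5 or mouse 1 of RSG.

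Higher with RSG was Plin4, at 2.91 to 3.74 with RSG and 0.01 to 2.06 with S, a difference of 2.02 (95% interval 1.34 to 2.69, adjusted p = 9.43e-04). The groups did not overlap. Slc13a4, a sulfate transporter, ran from 2.76 to 3.08 with RSG and from 1.02 to 1.96 with S (difference 1.45, adjusted p = 4.74e-06). Gpat4, an acyltransferase of triglyceride synthesis, differed by 0.46 (0.28 to 0.63), and Elovl3 by 0.76 (0.41 to 1.12). The other genes of the 6 with the largest upward difference were Igsf21 (1.69), Cfap57 (1.69), Ankrd22 (1.63) and Prkd1 (1.46), the last 2 well above background in no pool channel.

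Lower with RSG was the keratin gene Krt23, which ran from 0.94 to 3.02 with RSG and from 2.35 to 3.51 with S (difference -1.49, adjusted p = 0.00262), and its highest value with RSG, in mouse 1, overlapped the S group. Krt20, another keratin gene, dim on 8 of the 12 RSG arrays and on every pool channel, differed by -2.14 (-3.28 to -1.001). Defb1, a defensin of epithelia, was at 0.02 ± 0.23 with RSG and 1.45 ± 0.32 with S, and Lamb3, a laminin chain, at 0.45 ± 0.24 and 1.81 ± 0.41. Hao2, low in both groups, differed by -1.97 (-3.04 to -0.90, adjusted p = 0.0418). Insyn1 differed by -1.54. Of the 12 genes with the largest differences none kept its call with scan day as a fixed block, though the differences stayed between 1.25 and 2.18 upwards and between -3.40 and -1.499 downwards.

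Some of these calls also turned on other settings. Under normexp the differences of Hao2 (-0.89), Krt20 (-0.67), Defb1 (-0.47), Insyn1 (-0.20), Cfap57 (0.498) and Prkd1 (0.28) were smaller and not called. With 1 of the 12 mice left out in turn, Hao2 lost its call in 9 of 12 fits (adjusted p = 0.0674 to 0.102 in limma), all but those without RSG mouse 5 or 6 or S mouse 3. Krt20 lost it without RSG mice 2, 3, 4 or 6 and S mice 4, 5 or 6, and Insyn1 without RSG mice 2, 4 or 5 and S mice 4 or 5. Cfap57 lost it without RSG mice 2 or 4 and S mice 5 or 6, Ankrd22 without RSG mice 5 or 6 and S mice 1 or 5, and Prkd1 without S mouse 5. Plin4, Slc13a4, Igsf21, Krt23, Defb1 and Lamb3 were called in all 12 of these fits.

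Some fat oxidation genes were lower with RSG than with S. Ehhadh was at 1.19 to 1.66 with RSG and 2.34 to 2.87 with S, without overlap (difference -1.07, -1.27 to -0.87, adjusted p = 4.18e-08). Fabp2 ran from -0.40 to 0.66 with RSG and from 1.01 to 1.77 with S (difference -0.98, -1.30 to -0.66). Of 23 peroxisomal genes 6 were called lower than with S and none higher, of 20 genes of mitochondrial beta-oxidation 3, of 18 of fatty acid uptake 3, and of 24 of cholesterol synthesis 6. Among genes 0.718% were called higher and 1.27% lower in this comparison. Scd1 (difference 0.11, -0.35 to 0.57), Fasn (-0.15, -1.04 to 0.74) and Fabp4 (0.23, -0.51 to 0.97) were not called, and their intervals allow a difference in either direction.

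**Figure D5:**
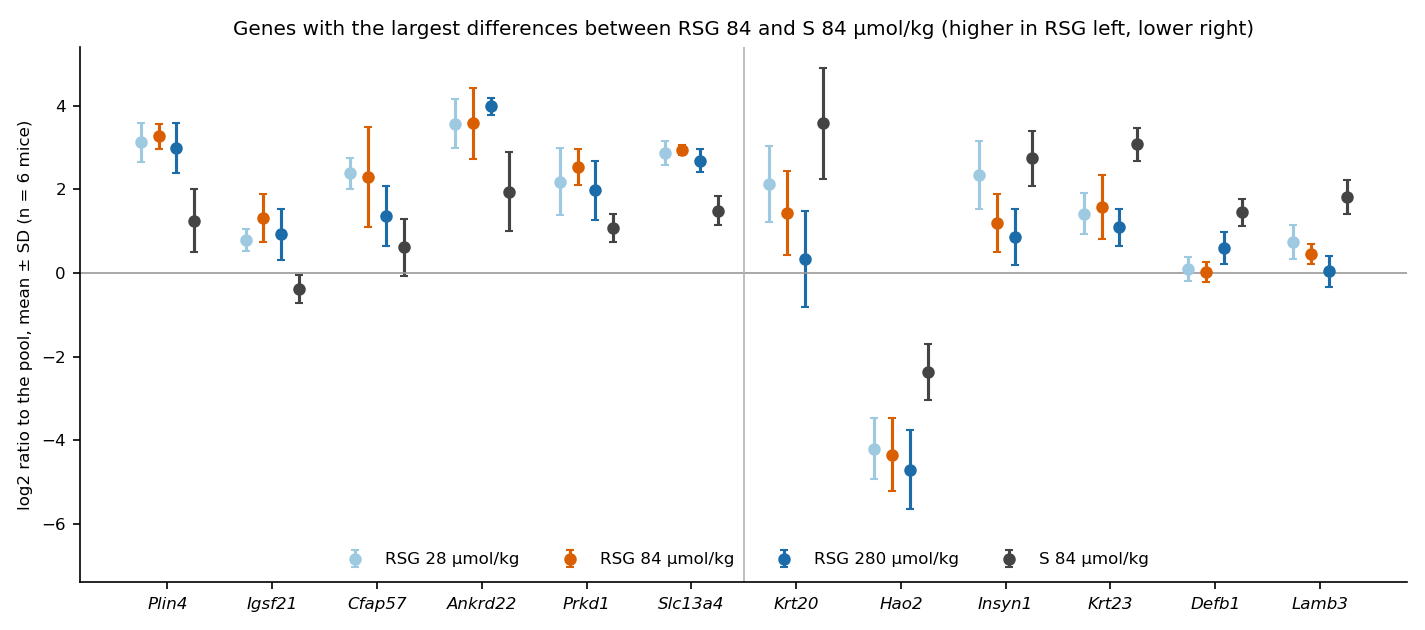
Mean ± SD (n = 6 mice) of the log2 ratio to the pool for the 12 named genes that differ most between RSG and S at 84 µmol/kg, with the other RSG doses beside them. Plin4 lies at 3.26 with RSG and 1.25 with S, and Krt23 at 1.58 and 3.07.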

How the data were processed

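RNA of the liver was read on 2-colour Agilent arrays, and the authors made the files with Agilent Feature Extraction 9.5, which subtracted a fitted background surface and removed dye bias by lowess. The deposited ratio column is the log10 of the Cy5 over the Cy3 signal, and the deposited intensity columns hold spot and background brightness on a linear scale. The remaining deposited columns used here are other marks of the software for control spots, outliers, saturation and signal over background. A further table from the authors, with log10 ratios of each sample, served as an alternative.

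Control spots and outlier spots were left out. Each ratio was written as log2 of mouse over pool, turned by the dyes in the labels, and averaged over the 2 arrays of a mouse and the spots of a probe. Before turning, the arrays of a pair correlated with r from -0.929 to -0.859 over brighter probes. Of 41174 probes, 23483 were named through the RefSeq accession in the reference table and 17691 went by the name of the array design. A sequence was tested if a channel of any liver group was above background by the software's mark on 50% or more of its arrays. Probe positions are those of the array design on mm8. Promoters are from RefSeq on GRCm38.p6 and were searched over 250 bases before the start.

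Group means of all 36 treated livers were estimated with lmFit and eBayes of limma 3.58.1 (R 4.3.3) and tested against 0 or against each other, with Benjamini-Hochberg adjustment and an adjusted p under 0.05. The error-weighted model of the study's methods was not available. Where a channel was well above background on no array, a lower limit of the fold was set against the dimmest probes that were above it. These limits hold for the main processing, and several normexp ratios were smaller. The p-values weigh a mean or difference against the spread between treated mice, and the number of mice per group limits their precision. The code was tested on simulated data. The genes named are the 12 highest and 12 lowest with a call and the same sign in every mouse, from each list the 4 with the smallest p and the one that went most clearly against the rest, the liver genes of the study's text, the genes with the smallest p or largest difference between groups and with the widest spread, and genes near background, apart from some that are not reported here. Their members and the 41 lists (603 genes tested) were chosen with earlier results of these data known. Alternatives covered background correction, the authors' table, filters, centring, scan day and slide, single dyes, the replicate number, the fitted groups, the study's thresholds and each mouse left out. Python 3.11.15 and matplotlib 3.10.9 served for the figures.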

Additional observations from a re-analysis of the deposited data

Results flagged for a closer look

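A mouse was singled out where its gap to the nearest other mouse took more of the range of the 6 mice than Dixon's test allows, a limit that chance alone passes in about 1 of 20 groups. Of 215 named genes 31 (14.4%) and of 41 list medians 4 met it. Since 6 of the 31 were named for their wide spread in these mice, the share is not to be read against that rate. Mouse 5 accounted for 18 of the genes, mouse 1 for 10, and mice 3, 4 and 6 for 1 each.

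In mouse 5 the interferon-induced GTPases were far above the others, with Tgtp1 at 3.94, Gbp8 at 3.43, Gbp7 at 3.04, Igtp at 2.95, Iigp1 at 2.93 and Gbp2 at 2.68, and the median of the interferon list was 1.82. Genes of fat synthesis were below the others in the same mouse, with Scd1 at 2.05, Me1 at 1.46, Fasn at 0.82, Acacb at 0.66 and Acly at -0.36. The peroxisomal thiolases Acaa1b (1.62) and Acaa1a (1.57), the pyruvate dehydrogenase subunit Dlat (0.52), the glucose transporters Slc2a4 (-1.88) and Slc2a2 (-0.86), pyruvate kinase Pklr (-0.77) and the mevalonate pathway enzyme Pmvk (-0.19) were also lowest by a wide gap, as was the median of the exocrine pancreas list (-0.16). The cause of these values was not tested.

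In mouse 1 several enzyme genes were lowest by a wide gap, namely Cyp2c37 at -3.08, Akr1d1 at -2.56, Cyp2c29 at -2.25, Cps1 at -1.77, Mat1a at -1.40, Pecr at -1.01 and the muscle marker Eno3 at -0.72. Mogat1 (2.24), Pparg (0.90) and Mgst1 (0.50) were highest by a wide gap there. The median of the cell cycle list was 0.93 and that of the circadian list -0.57 in mouse 1. Single values stood out for Gtl2 in mouse 6 (-2.71), Gpat4 in mouse 3 (0.31) and Plin1, which was at background, in mouse 4 (-0.66). The cause of these values was not tested either.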

How the results depend on the processing

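Against the pool 14580 sequences were called, and the count was 10354 to 15202 under the alternatives of correction, table, filter, centring, block, dye and fitted groups, and 13045 to 14246 without 1 mouse. It was 4666 at the study's thresholds and 7284 in the 2 mice of the second scan day alone. Between 84 and 28 µmol/kg 1 sequence was called with scan day as a fixed block, 1 with only the arrays carrying the mouse in Cy3, 4 within the shared scan day and 19 at the study's thresholds. Against 280 µmol/kg there was 1 with the Cy3 arrays, 0 to 1 without 1 mouse (1 without mouse 4 at 280 µmol/kg) and 20 at the study's thresholds. Against S the 469 calls became 0 with scan day as a fixed block, 270 with it as a random block, 289 with the slide as a random block, 165 with only both groups in the fit and 231 at the study's thresholds. Without 1 mouse they ran from 260 to 524, with 310 and 307 without RSG mice 1 and 5, and 290, 260 and 295 without S mice 4, 5 and 6. In the lists 435 genes were called, and 404 to 422 without 1 mouse, of which 401 to 415 were among the 435. The median SD over mice was 0.0799 under normexp and 0.125 to 0.143 without 1 mouse. The cause of these shifts was not tested, apart from the fewer mice.

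With the replicate number as a block 15202 sequences were called against the pool, 0 in both dose comparisons and 632 against S. Mice of 1 number deviated together with a mean correlation of 0.169 (-0.05 to 0.52) for 28 µmol/kg, where 3 of 6 correlated best with their own number, and of 0.03 and -0.03 for 280 µmol/kg and S, so the numbers were not taken to pair the mice.

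Of 3849 values under the alternatives, over the 215 named genes reported here, 3810 kept their call or lack of one, 29 lost the call and 10 gained it. None of the genes called in the main fit reversed. Direction was not compared for genes that stayed uncalled, and some changed sign, such as Gbp6 with scan day as a fixed block (-0.19 to 0.67). Under normexp 44 of the 194 called genes had values more than 1.5 times smaller, and with scan day as a fixed block 11 smaller and 2 larger. Of 451 list medians 20 moved by more than the spread over mice, and 18 changed sign, all of lists with a median within 0.2 of 0. Under normexp the median was 0.18 for brown adipocyte markers, 0.29 for matrix and for replication genes, 0.22 for triglyceride synthesis and 0.33 for pyruvate dehydrogenase. With scan day as a fixed block it was 0.36 for lipolysis genes (0.47 in the main fit) and -0.30 for apolipoprotein genes (-0.17 in the main fit). Dim genes limit the data, since a median of 53.1% of the probes were well above background in the mouse channel.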
